A study of Caenorhabditis elegans with 24 samples.

Results

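The ionotropic glutamate receptors of Caenorhabditis elegans described here are the products of 10 genes, glr-1 to glr-8, nmr-1 and nmr-2. They were measured by every probe set whose annotation gives exactly 1 of these symbols, which yielded 14 of the 22548 probe sets tested on the Affymetrix C. elegans array and 10 of the 17118 genes that have a probe set of their own. glr-4 has 3 probe sets, glr-1 and glr-2 have 2 each and the other genes have 1. Neurons were profiled at 2 stages beside reference RNA. The embryonic pan-neural sample (EP, 3 arrays) came from embryonic cells of strain NW1229, which carries evIs111 (F25B3.3::GFP), kept in culture for 24 hours and sorted for GFP to about 90% purity. Its reference (ER, 4 arrays) came from all viable cells of wild-type embryos after culture. For the larval samples, L2 larvae were used that made PAB-1, a protein that binds poly(A) tails, with a FLAG epitope in chosen cells only. Immunoprecipitation of the tag recovers the transcripts of those cells, a method called mRNA-tagging. The larval pan-neural sample (LP, 3 arrays) was made from SD1241 (gaIs153, F25B3.3::FLAG::PAB-1), in which a promoter active throughout the nervous system drives the tag. The larval A-class sample (LA, 4 arrays) was made from NC694, whose extrachromosomal array wdEx257 carries unc-4::3XFLAG::PAB-1. The unc-4 promoter is active in the A-class (VA, SAB and, more weakly, DA), cholinergic motor neurons of which VA and DA excite body muscle for backward movement, and also in the neurons I5 and AVF. The larval reference (LR, 5 arrays) was RNA that stuck nonspecifically in mock immunoprecipitations from wild-type L2 larvae (N2), and these 5 hybridizations serve both larval samples.

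Ionotropic glutamate receptors are cation channels that assemble from several subunits and open when glutamate binds. The glr genes encode subunits of the AMPA and kainate types, which carry fast excitation, and the nmr genes encode subunits of the NMDA type, which open only when the membrane is also depolarised. In the worm, GLR-1 is best known from the command interneurons, where it receives sensory input for backward and forward movement, and GLR-2, NMR-1 and NMR-2 act in the same circuit.

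Levels are log2 intensities after robust multi-array averaging (RMA), a method that removes background, equalises the arrays of a set and sums up the probes of a probe set. The authors normalised the embryonic, larval pan-neural and A-class sets separately, so that levels are set side by side only within a set. A probe set is called where its Benjamini-Hochberg adjusted p over all probe sets is under 0.01 (limma, a linear model with moderated variance) and its change is at least 1.5-fold. A level is described as near the floor where the mean of the group is under 5. glr-3 and glr-7 were near the floor in all 6 groups, a further 4 probe sets were so in some groups, and the remaining 8 in none. Probe sets that end in _s_at match several transcripts and those that end in _x_at may cross-hybridise, which applies to 5 of the 14, both of glr-1, 1 of glr-2 and those of nmr-1 and nmr-2. Values are given for each array in replicate order, as means ± SD over arrays, and as log2 changes ± SE.

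The arrays of a group resembled each other, with the lowest squared correlation between replicates at 0.918. Of 8 general neuron markers, such as snt-1 (synaptotagmin) and ric-4 (SNAP-25), 1 was called higher in EP, 6 in LP and 3 in LA. Their summed intensities were 6442 to 7370 in EP against 3083 to 4846 in ER, 9645 to 11050 in LP against 3493 to 4258 in LR, and 5445 to 6826 in LA against 3068 to 3637 in LR. unc-4, the gene whose promoter drove the A-class tag, was 3.14 ± 0.18 higher in the A-class sample (adjusted p = 3.88e-05, limma). Markers of other tissues were not called higher in a larval sample. In LP, 4 of 7 intestinal, 2 of 6 hypodermal, 2 of 4 germline, 1 of 4 glial, 0 of 6 body wall muscle and 0 of 4 pharyngeal muscle markers were called lower, and in LA none of these was called. The summed hypodermal intensities were nevertheless 17500 to 22730 in LA against 11140 to 16780 in LR, and the glial ones 387.6 to 471.8 in LA against 482.8 to 833.9 in LR, both without overlap. In EP, 2 of 6 body wall muscle and 1 of 4 germline markers were called lower, 1 of 7 intestinal markers was called higher, and no hypodermal, glial or pharyngeal muscle marker was called.

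**Figure D1:**
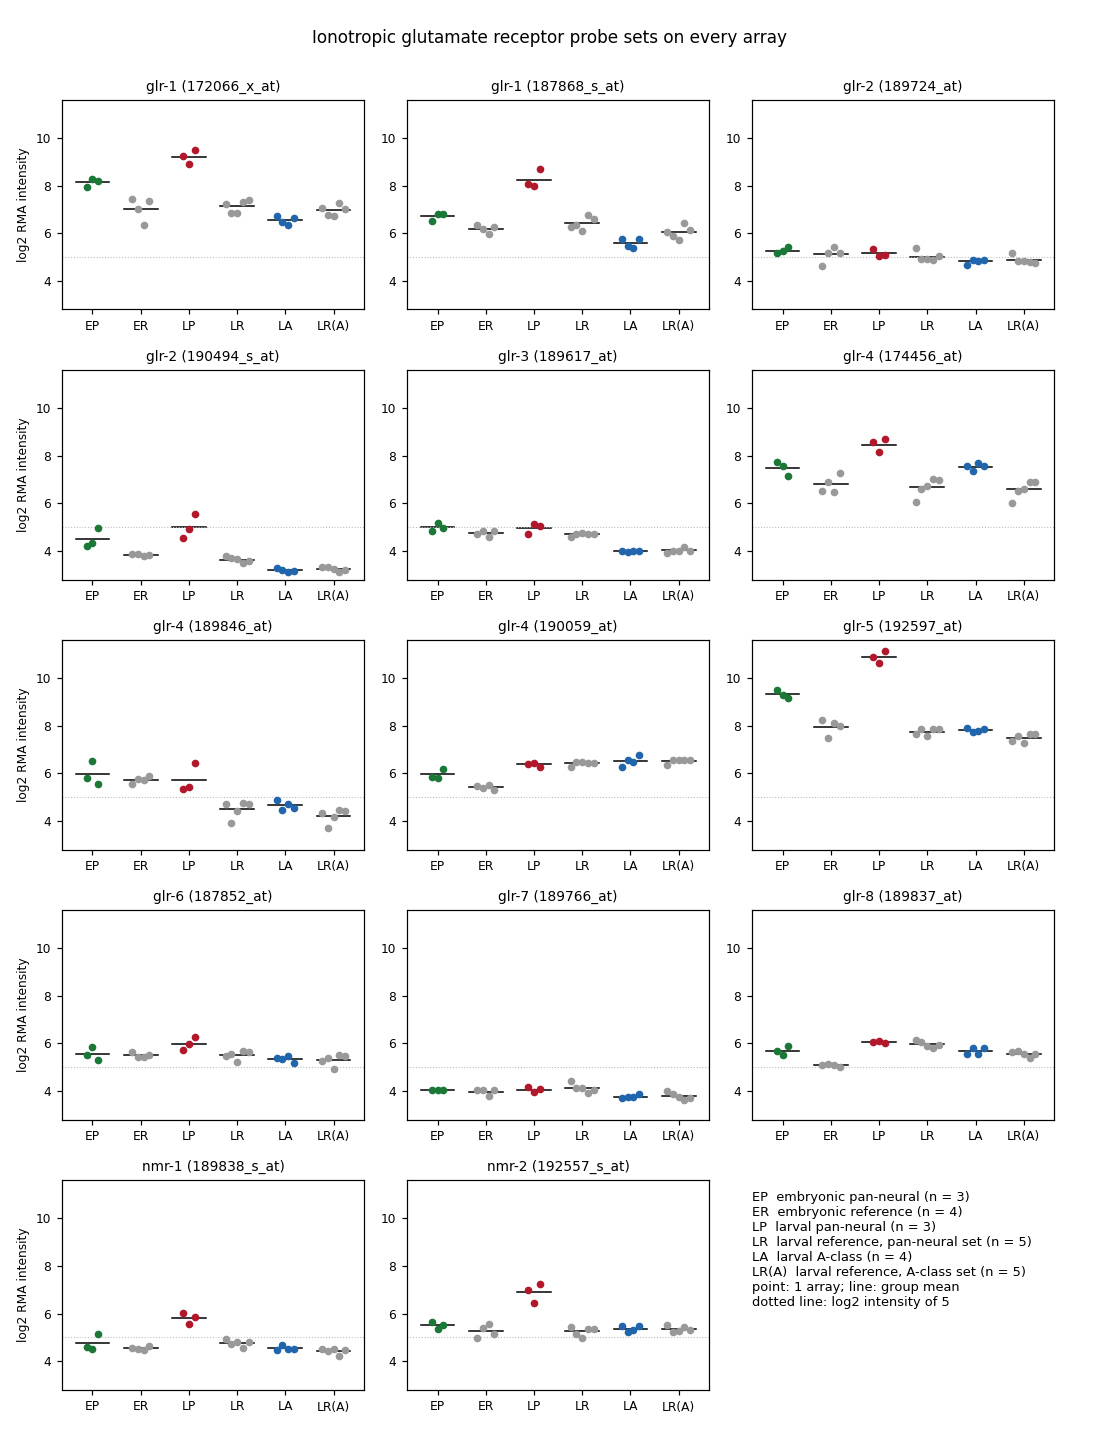
Log2 RMA intensity of each of the 14 probe sets on every array, with 1 point per array and a line at the group mean; each neuronal sample (EP, LP, LA) stands left of its own reference (ER, LR, LR(A)), and the dotted line marks a level of 5. The LP points of glr-5 and of both glr-1 probe sets lie clear above their references, while those of glr-7 lie near 4 in every group.

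Receptor transcripts were most widely raised in the larval pan-neural sample. There, 7 of 14 member probe sets were called higher than the larval reference, against 6.08% of all probe sets tested, and none was called lower, against 3.34%. They belong to 6 of 10 genes (glr-1, glr-2, glr-4, glr-5, nmr-1 and nmr-2). A gene counts here with any probe set called, and for glr-2 and glr-4 only 1 was. The arrays of LP and LR did not overlap for 9 of the 14, all higher in LP, where 12.5% of all probe sets were higher and 11.5% lower without overlap. At an unadjusted p under 0.05, 10 members were higher and 0 lower, against 14.2% and 15.3% of all. The median log2 change was 1.15 over the members and 0.002 over all probe sets. Since the RNA comes from many cells at once, a larger number of cells with a transcript and more of it per cell cannot be told apart.

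Of the subunits of the AMPA type, glr-1 rose in the larval pan-neural sample by both of its probe sets and glr-2 by only 1. glr-1 encodes the subunit that carries most fast glutamate current in the command interneurons. Its probe set 172066_x_at read 9.23, 8.90 and 9.49 in LP, against 7.22, 6.85, 6.86, 7.32 and 7.41 in LR. All LP arrays stood well above all LR arrays, with means of 9.21 ± 0.30 in LP and 7.13 ± 0.26 in LR (SD, n = 3 and 5). The change was 2.08 ± 0.18, or 4.23-fold (adjusted p = 7.44e-05, limma). The other glr-1 probe set, 187868_s_at, read 8.06, 8.002 and 8.70 in LP, against 6.27, 6.34, 6.10, 6.77 and 6.59 in LR. The groups were again apart, with a change of 1.84 ± 0.20, or 3.57-fold (adjusted p = 0.000274, limma), so that the 2 probe sets of glr-1 gave similar values. glr-2 encodes a subunit that can assemble with GLR-1. Its probe set 190494_s_at read 4.54, 4.93 and 5.56 in LP, against 3.79, 3.70, 3.65, 3.49 and 3.57 in LR. The groups did not overlap, but the LR arrays were all near the floor and the LP arrays spread over about 1 log2 unit. The change was 1.37 ± 0.20 (adjusted p = 0.00142, limma), a rough value at such low levels. The other glr-2 probe set, 189724_at, read 5.32, 5.05 and 5.09 in LP, against 5.37, 4.93, 4.92, 4.86 and 5.03 in LR. Here the groups overlapped, and the change of 0.13 did not pass the test (95% confidence interval -0.17 to 0.43, adjusted p = 0.604, limma). The probe sets of glr-2 therefore gave different answers.

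Of the remaining non-NMDA subunits, glr-5 rose, glr-4 rose by 1 of its 3 probe sets, and glr-3, glr-6, glr-7 and glr-8 did not pass the test. glr-5, a subunit related to the kainate receptors, had the largest change of the members. It read 10.87, 10.62 and 11.14 in LP, against 7.64, 7.85, 7.57, 7.86 and 7.85 in LR. The lowest LP array lay more than 2 log2 units above the highest LR array. The change was 3.13 ± 0.13, or 8.72-fold (adjusted p = 3.95e-06, limma), and was the 6th largest increase of all 22548 probe sets. glr-4 probe set 174456_at read 8.56, 8.14 and 8.69 in LP, against 6.05, 6.62, 6.74, 7.03 and 6.995 in LR. The groups were apart, and the change was 1.78 ± 0.23, or 3.43-fold (adjusted p = 0.000686, limma). glr-4 probe set 189846_at read 5.33, 5.45 and 6.44 in LP, against 4.70, 3.93, 4.41, 4.75 and 4.70 in LR. These groups did not overlap either, and the change of 1.24 ± 0.28 narrowly missed the threshold (adjusted p = 0.0126, limma; interval 0.62 to 1.86). glr-4 probe set 190059_at read 6.41, 6.43 and 6.28 in LP, against 6.27, 6.48, 6.46, 6.42 and 6.44 in LR. It showed no difference larger than the spread between arrays, with a change of -0.04 (interval -0.24 to 0.16, adjusted p = 0.843, limma). Only the first of the 3 glr-4 probe sets was thus called.

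The 4 non-NMDA genes without a call had smaller changes. glr-6, another kainate-related subunit, read 5.72, 5.97 and 6.26 in LP, against 5.46, 5.55, 5.24, 5.67 and 5.64 in LR. Every LP array was above every LR array, but the change of 0.47 ± 0.14 was below 1.5-fold and did not pass the test (adjusted p = 0.0488, limma; interval 0.15 to 0.79). glr-3, which is known for a role in cold sensing in the ASER neuron, read 4.73, 5.13 and 5.07 in LP, against 4.57, 4.69, 4.77, 4.73 and 4.72 in LR, and the groups overlapped slightly. Its change was 0.28 (interval 0.03 to 0.53, adjusted p = 0.123, limma). Reporters of glr-7 and glr-8 have been seen mainly in the pharyngeal nervous system. glr-8 read 6.06, 6.09 and 6.02 in LP, against 6.13, 6.05, 5.87, 5.80 and 5.96 in LR, so that the groups overlapped. Its change was 0.09 (interval -0.13 to 0.31). glr-7 read 4.16, 3.96 and 4.07 in LP, against 4.45, 4.12, 4.12, 3.94 and 4.05 in LR, all near the floor, and its change was -0.08 (interval -0.35 to 0.20). A probe set at the floor cannot show whether its transcript differs.

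Both NMDA-type subunits rose in the larval pan-neural sample. nmr-1 encodes the obligate NR1-like subunit. It read 6.03, 5.55 and 5.87 in LP, against 4.92, 4.71, 4.82, 4.57 and 4.79 in LR. The groups were apart, and the change on this scale was 1.06 ± 0.13 (adjusted p = 0.000525, limma). The LR arrays were near the floor, so that the size of the change is uncertain. nmr-2 encodes an NR2-like partner of NMR-1. It read 7.01, 6.45 and 7.26 in LP, against 5.45, 5.15, 4.98, 5.37 and 5.34 in LR. The lowest LP array lay about 1 log2 unit above the highest LR array, and the change was 1.65 ± 0.18, or 3.14-fold (adjusted p = 0.000321, limma).

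The LP arrays did not carry the rise equally. LP replicate 3 was the highest of the 3 arrays for 6 of the 7 called probe sets and replicate 2 was the lowest for 6 of 7. The same ordering was common among all 1372 probe sets called higher in LP, of which 809 were highest in replicate 3 and 984 lowest in replicate 2. Of the 8 general neuron markers, 6 were lowest in replicate 2, but 4 were highest in replicate 3 and 4 in replicate 1. Mean enrichment over the 7 called probe sets was 1.81, 1.57 and 2.15 in LP replicates 1, 2 and 3. No call among the 7 was lost when any single array was left out. LP replicates 2 and 3 and LR replicates 4 and 5 were hybridized on the same day. Within that day the 7 changes were 1.03 to 3.03, all higher in LP, with adjusted p of 0.0141 to 0.0555 (limma, 2 against 2 arrays), and no probe set of the whole array was called. The number of members higher at an unadjusted p under 0.05 was 10 within that day and 10 over all arrays.

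**Figure D2:**
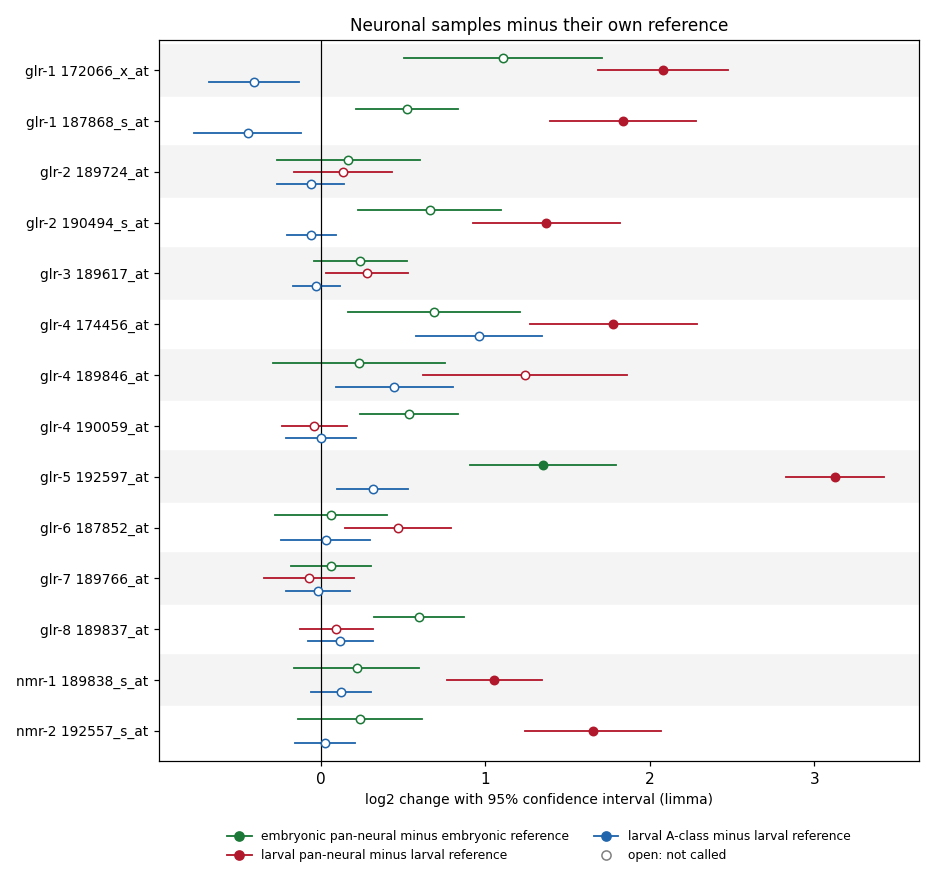
Log2 change of each probe set in the 3 neuronal samples minus their own references, with 95% confidence intervals from limma; filled points were called and open points were not. The LP changes of glr-5 (3.13) and glr-1 (2.08 and 1.84) lie farthest to the right, and the LA changes of glr-1 (-0.41 and -0.45) lie left of 0.

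By limma, embryonic neurons showed a weaker and less certain elevation. Only glr-5 was called higher than the embryonic reference, 1 of 14 probe sets against 1.96% of all probe sets, and none was called lower, against 2.78%. All 14 changes were above 0, with a median of 0.38 against 0.04 over all probe sets, and 7 of 14 were higher at an unadjusted p under 0.05, against 15.5% of all probe sets, with 0 lower, against 15%. The arrays of EP and ER did not overlap for 6 of 14 probe sets, all higher in EP, against 15.3% of all probe sets higher and 13.4% lower. Only 1 of the 8 general neuron markers was called in the same comparison, as given above, and whether the makeup of the sorted cells bears on the receptor values was not tested. glr-5 read 9.50, 9.27 and 9.16 in EP, against 8.24, 7.49, 8.09 and 8.01 in ER. All EP arrays were above all ER arrays, with means of 9.31 ± 0.17 in EP and 7.96 ± 0.33 in ER (SD, n = 3 and 4). The change was 1.35 ± 0.19, or 2.55-fold (adjusted p = 0.00515, limma). This call was lost when any array except ER replicate 1 was left out, at changes of 1.195 to 1.43 and adjusted p of 0.0102 to 0.0261. No hybridization day or chip lot held arrays of both groups. With the day as a random block the change was 1.35 ± 0.25 and was not called (adjusted p = 0.0194).

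Several other receptors were higher in every EP array without passing the threshold. glr-1 probe set 172066_x_at read 7.95, 8.27 and 8.18 in EP, against 7.43, 7.02, 6.33 and 7.34 in ER, and ER replicate 3 was far below the other ER arrays. Its change was 1.11 ± 0.26 (adjusted p = 0.0285, limma; interval 0.50 to 1.71). glr-1 probe set 187868_s_at read 6.51, 6.82 and 6.81 in EP, against 6.33, 6.19, 5.96 and 6.28 in ER, also without overlap, and its change was 0.52 (interval 0.21 to 0.83). glr-8 read 5.68, 5.51 and 5.90 in EP, against 5.12, 5.15, 5.11 and 5.02 in ER. The ER arrays lay within about 0.1 of each other, and the change of 0.60 ± 0.12, or 1.51-fold, missed the threshold (adjusted p = 0.0157, limma). glr-2 probe set 190494_s_at read 4.20, 4.32 and 4.98 in EP, against 3.87, 3.89, 3.77 and 3.83 in ER. Both groups were near the floor, and the change was 0.66 ± 0.19 (adjusted p = 0.0537, limma). glr-4 probe set 190059_at read 5.85, 5.83 and 6.20 in EP, against 5.49, 5.39, 5.53 and 5.30 in ER. This probe set, flat in the larval samples, was apart here with a change of 0.53 ± 0.13 (adjusted p = 0.0313, limma).

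The remaining embryonic values overlapped their reference. glr-4 probe set 174456_at read 7.73, 7.58 and 7.14 in EP, against 6.53, 6.90, 6.49 and 7.26 in ER. EP replicate 3 fell below ER replicate 4, and the change was 0.69 ± 0.23 (adjusted p = 0.0832, limma). glr-4 probe set 189846_at read 5.80, 6.52 and 5.55 in EP, against 5.55, 5.75, 5.73 and 5.88 in ER, and only EP replicate 2 stood above the ER arrays. nmr-1 read 4.60, 4.52 and 5.16 in EP, against 4.56, 4.51, 4.46 and 4.63 in ER. Only EP replicate 3 was raised, both groups were near the floor, and the change was 0.22 (interval -0.16 to 0.60, adjusted p = 0.399, limma). nmr-2 read 5.67, 5.33 and 5.52 in EP, against 4.98, 5.38, 5.56 and 5.16 in ER, with a change of 0.24 (interval -0.14 to 0.61, adjusted p = 0.356, limma). Neither NMDA-type gene thus passed the test in embryonic neurons, although their intervals still hold changes of more than 0.5. glr-2 probe set 189724_at, glr-3, glr-6 and glr-7 had changes of 0.17, 0.24, 0.06 and 0.06, all within the spread between arrays. glr-7 read 4.04, 4.05 and 4.03 in EP, against 4.04, 4.04, 3.80 and 4.04 in ER, a level shared by nearly all arrays of the set.

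In the A-class sample no member probe set was called by limma. The counts were 0 of 14 higher, against 0.776% of all probe sets, and 0 of 14 lower, against 0.115%. At an unadjusted p under 0.05, 3 were higher, against 7.54% of all, and 2 were lower, against 8.21%. The median change was 0.01 over the members and -0.01 over all probe sets. Without overlap, 2 of the 14 were higher, against 3.92% of all, and 0 were lower, against 2.81%. In the same comparison 4 of 6 cholinergic motor neuron markers and 0 of 4 GABA neuron markers were called higher.

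glr-4 and glr-5 had the highest A-class values relative to the reference. glr-4 probe set 174456_at read 7.58, 7.35, 7.69 and 7.55 in LA, against 6.01, 6.53, 6.61, 6.87 and 6.91 in LR. Every LA array was above every LR array, with means of 7.54 ± 0.14 in LA and 6.59 ± 0.36 in LR (SD, n = 4 and 5). The change was 0.96 ± 0.17, or 1.94-fold, and missed the threshold (adjusted p = 0.0181, limma; interval 0.58 to 1.34). LR replicate 1 was the lowest reference array, and without it the change was 0.81 and was called (adjusted p = 0.00924). glr-4 probe set 189846_at read 4.90, 4.46, 4.71 and 4.56 in LA, against 4.32, 3.69, 4.18, 4.46 and 4.41 in LR, all near the floor. Its groups met at 4.46, and its change was 0.45 ± 0.16 (adjusted p = 0.187, limma). The third glr-4 probe set, 190059_at, had a change of 0.001 (interval -0.21 to 0.22). glr-5 read 7.88, 7.75, 7.77 and 7.87 in LA, against 7.36, 7.55, 7.26, 7.67 and 7.67 in LR. The groups did not overlap, but the change of 0.31 ± 0.10 was small (1.24-fold) and did not pass (adjusted p = 0.127, limma).

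glr-1 leaned the other way in the A-class sample. Its probe set 172066_x_at read 6.72, 6.48, 6.37 and 6.64 in LA, against 7.07, 6.76, 6.72, 7.25 and 7.003 in LR, and the groups only touched. Its change was -0.41 ± 0.12 (adjusted p = 0.117, limma; interval -0.68 to -0.13). Probe set 187868_s_at read 5.77, 5.47, 5.40 and 5.75 in LA, against 6.06, 5.87, 5.71, 6.44 and 6.13 in LR, with a change of -0.45 ± 0.15 (adjusted p = 0.151, limma; interval -0.77 to -0.12). The overlap was slight in both, and neither passed. The NMDA-type genes did not pass the test either. nmr-1 read 4.47, 4.70, 4.52 and 4.52 in LA, against 4.52, 4.41, 4.52, 4.22 and 4.48 in LR, with a change of 0.12 (interval -0.06 to 0.31), but all arrays were near the floor, where a difference may not show. nmr-2 read 5.47, 5.24, 5.31 and 5.46 in LA, against 5.50, 5.24, 5.27, 5.42 and 5.30 in LR, with a change of 0.02 (interval -0.16 to 0.20). The groups overlapped throughout. The other members, both glr-2 probe sets, glr-3, glr-6, glr-7 and glr-8, had changes between -0.06 and 0.12 with overlapping groups. The LA arrays were hybridized on other days than the LR arrays, and LA replicate 1 went through another wash protocol than the other LA arrays.

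**Figure D3:**
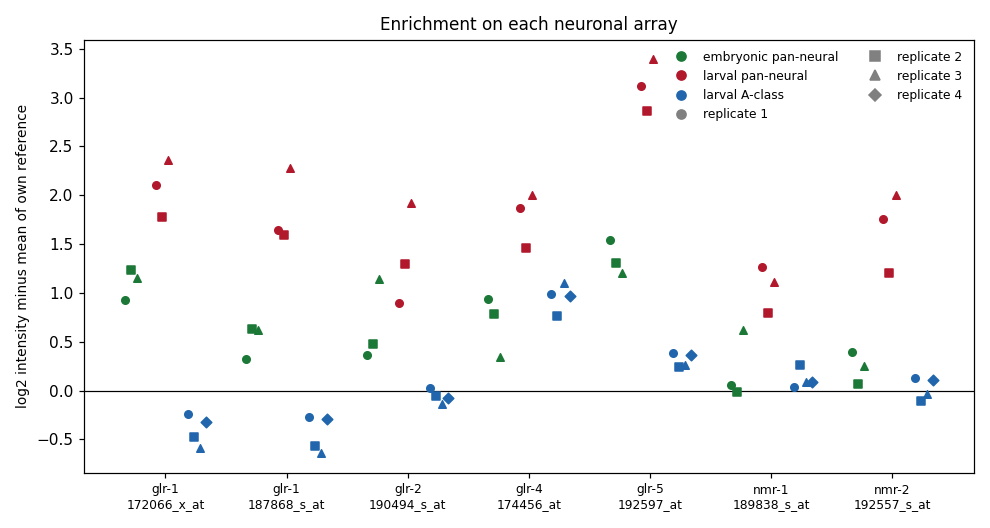
Log2 intensity of each neuronal array minus the mean of its own reference, for the 7 probe sets called against a reference in at least 1 sample; colour gives the sample and the marker shape gives the replicate. All LP points lie above the EP and LA points of the same probe set except for glr-2, where the lowest LP array lies below 1 EP array, and the glr-1 points of LA lie below 0. All 7 were called in LP, so their high LP position follows in part from the choice. Of all 14 probe sets, 4 had a higher enrichment in EP than in LP, and none of these is shown.

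The enrichments of the 3 neuronal samples were then compared directly. The A-class enrichment was lower than the larval pan-neural enrichment for 7 of 14 probe sets, against 3.76% of all, and higher for none, against 1.95%. At an unadjusted p under 0.05, 10 were lower and 0 higher, against 13.2% and 13% of all. In this comparison the mean of the shared references was subtracted first, so that its error counts only the spread of the neuronal arrays. The same 7 probe sets as in the larval pan-neural comparison were called. The difference was -2.81 ± 0.13 for glr-5, with an enrichment of 0.31 in LA and 3.13 in LP (adjusted p = 3.18e-05, limma). It was -2.49 ± 0.15 and -2.28 ± 0.18 for the glr-1 probe sets 172066_x_at and 187868_s_at (adjusted p = 6.95e-05 and 0.000184). For nmr-2, whose enrichment was 0.02 in LA and 1.65 in LP, the difference was -1.63 ± 0.18 (adjusted p = 0.000889). It was -1.43 ± 0.21 for glr-2 probe set 190494_s_at and -0.93 ± 0.13 for nmr-1 (adjusted p = 0.00333 and 0.00228). Both of these probe sets were near the floor in LA and in the references of both larval sets. An A-class enrichment may not show there, and the size of their differences is uncertain. The smallest difference that was called was that of glr-4 probe set 174456_at, whose enrichment was 0.96 in LA and 1.78 in LP, at -0.82 ± 0.15 (adjusted p = 0.00786). This last call was lost on leaving out any of the 4 LA arrays or LP replicate 1 or 3, at differences between -0.87 and -0.71, and on leaving LR replicate 4 or 5 out of the A-class set alone or LR replicate 1 out of the pan-neural set alone, at -0.75, -0.74 and -0.66. It was also lost with both larval sets in 1 fit (adjusted p = 0.122) and with only the references labelled set 2, at -0.49 (adjusted p = 0.0502). The call of glr-2 probe set 190494_s_at was lost without LA replicate 2, 3 or 4, and that of nmr-1 without LA replicate 3 or LP replicate 3, so that 4 probe sets were called without LA replicate 3. General neuron markers were called lower for 2 of 8 in the same comparison (median difference -0.50) and GABA neuron markers for 4 of 4 (-1.42). Command interneuron markers were called lower for 2 of 3 (-0.97). Cholinergic motor neuron markers were called lower for 1 of 6 and higher for 1 of 6 (-0.47). The median over all probe sets was -0.009. Markers of other tissues were called higher for 4 of 6 in hypodermis (median difference 1.23), 2 of 7 in intestine (0.67) and 1 of 6 in body wall muscle (0.59). The part of these tissues, and of the lower enrichment of general neuron markers, in the receptor differences was not tested. Tagged cells, form of the FLAG tag, kind of transgene and normalisation set differ together between LA and LP and cannot be told apart.

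The embryonic pan-neural enrichment was lower than the larval one for glr-5, nmr-2 and a probe set of glr-1. These were 3 of 14 probe sets, against 3.13% of all, and none was called higher, against 1.88%. At an unadjusted p under 0.05, 8 were lower and 2 higher, against 13.8% and 13% of all. The difference was -1.77 ± 0.24 for glr-5, with an enrichment of 1.35 in EP and 3.13 in LP (adjusted p = 0.000379, limma). It was -1.42 ± 0.26 for nmr-2, with 0.24 in EP and 1.65 in LP (adjusted p = 0.00275), and -1.32 ± 0.26 for glr-1 probe set 187868_s_at, with 0.52 in EP and 1.84 in LP (adjusted p = 0.00411). The other glr-1 probe set differed by -0.98 ± 0.32 and was not called (adjusted p = 0.0634; interval -1.67 to -0.28), nor was nmr-1 at -0.84 ± 0.21 (adjusted p = 0.0182). Differences above 0 were seen for glr-4 probe set 190059_at, at 0.57 ± 0.15 (adjusted p = 0.0239), and glr-8, at 0.51 ± 0.15 (adjusted p = 0.0413), neither of which was called. Without LP replicate 3 only glr-5 was called, and the call of the glr-1 probe set was also lost without EP replicate 1, at -1.22. With only the 2 larval references that the titles place in the larval set, glr-5 alone was called. Stage, way of isolating the RNA and kind of reference differ together between these samples and cannot be told apart.

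The A-class enrichment was lower than the embryonic pan-neural enrichment for glr-1 and glr-5. 3 of 14 probe sets were called lower, against 3.18% of all, and none higher, against 3.97%. At an unadjusted p under 0.05, 6 were lower and 0 higher, against 14.9% and 13.7% of all. The difference was -1.51 ± 0.28 and -0.97 ± 0.21 for the glr-1 probe sets 172066_x_at and 187868_s_at (adjusted p = 0.00203 and 0.00593, limma) and -1.04 ± 0.21 for glr-5 (adjusted p = 0.00333). The call of 187868_s_at was lost on leaving out any of 8 of the 16 arrays, at differences between -0.97 and -0.89, and that of glr-5 without EP replicate 1, at -0.94. For nmr-1 and nmr-2 the differences were -0.10 (interval -0.47 to 0.28) and -0.21 (interval -0.58 to 0.15), and for glr-4 probe set 174456_at 0.27 (interval -0.35 to 0.89), with none of these past the test. Cells, stage, way of isolating the RNA and kind of reference differ together between these samples as well and cannot be told apart.

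The order of the enrichments can be read from these tests. For glr-5 it was highest in LP, then EP, then LA, and all 3 steps were called. For glr-1 probe set 187868_s_at the order was the same and all 3 differences were called, while for 172066_x_at LP and EP were not separated by the test. The glr-5 call between LA and EP was lost without EP replicate 1. For 187868_s_at the calls between EP and each larval sample were lost without certain single arrays, as given above. nmr-2 was higher in LP than in either other sample, with no call between EP and LA. For glr-2 probe set 190494_s_at and nmr-1 only LP and LA were separated, and both were near the floor in every group except LP. The glr-2 probe set averaged 5.008 in LP, just above the limit of 5, with LP replicates 1 and 2 below it. glr-4 probe set 174456_at was the only one of these with LA above EP, at 0.96 in LA and 0.69 in EP, and this step was not called. EP differs from the larval samples in stage, way of isolating the RNA and kind of reference together. Steps that involve EP can therefore not be assigned to any of these alone. LA and LP differ in tagged cells, form of the FLAG tag, kind of transgene and normalisation set together. The step between them can therefore not be assigned to the cells alone either.

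**Figure D4:**
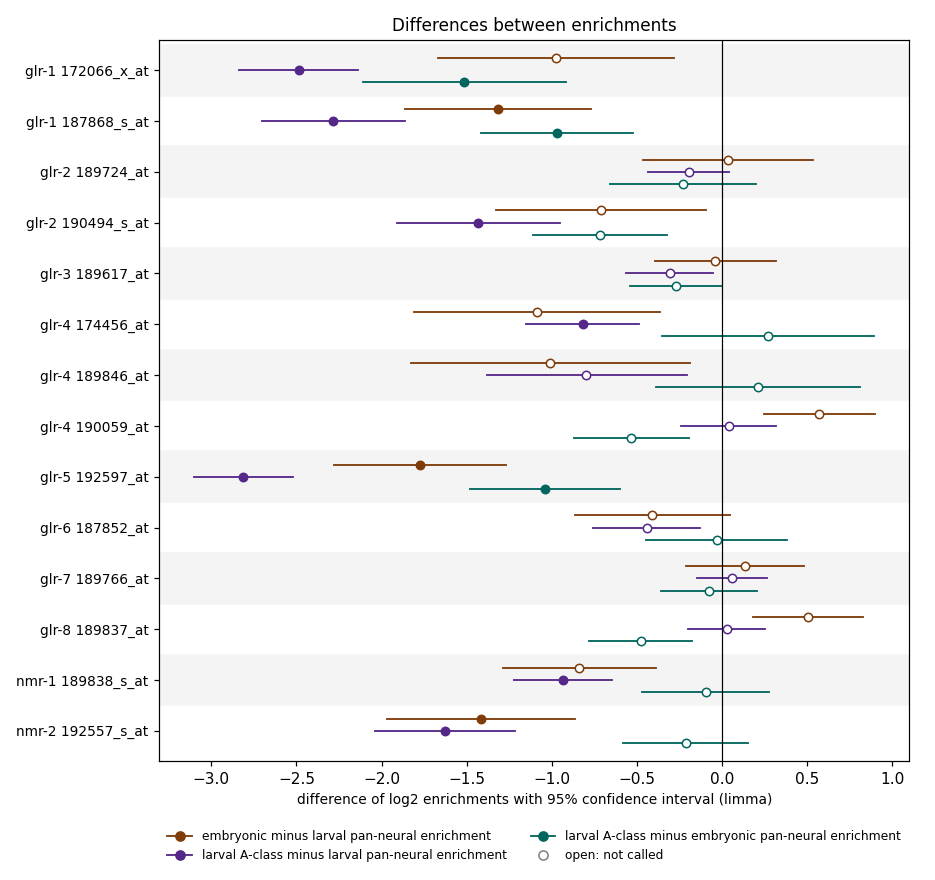
Difference between the log2 enrichments of 2 neuronal samples for each probe set, with 95% confidence intervals from limma; filled points were called and open points were not. The A-class minus larval pan-neural differences of glr-5 (-2.81) and glr-1 (-2.49 and -2.28) lie farthest to the left.

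For each called probe set, the 3 probe sets of other genes with the nearest pattern over the 10 neuronal arrays, each taken minus the mean of its own reference, were looked up. Likeness is given as the root mean square difference in log2 units, and it is a description only. The nearest to glr-5 was nlp-6, a neuropeptide gene, at 0.22, with enrichments of 1.35 in EP, 2.98 in LP and 0.10 in LA, followed by ZK994.6 at 0.34 and T19D7.5 at 0.36. The nearest to glr-1 probe set 172066_x_at were flp-7 (0.23), cdkl-1 (0.25) and flp-1 (0.27), and to 187868_s_at they were nlp-17 (0.23), nlp-49 (0.27) and flp-24 (0.32). Of these 6, 5 encode neuropeptides of the flp and nlp families, and cdkl-1 encodes a cyclin-dependent kinase-like protein. The share of neuropeptide genes among all probe sets with a like pattern was not counted, and the study reports many flp and nlp genes as enriched in LP. The nearest to glr-4 probe set 174456_at were egl-3, which encodes a proprotein convertase that processes neuropeptides, at 0.22, nssp-60 at 0.23 and dmsr-1 at 0.24. Its pattern was shared with genes raised in all 3 samples, as egl-3 had 0.82 in EP, 1.97 in LP and 0.75 in LA. The nearest to glr-2 probe set 190494_s_at were nssp-43 (0.23), nssp-42 (0.26) and dop-2 (0.27), the last a dopamine receptor. nmr-1 was nearest to Y38E10A.8 (0.13), ntr-2 (0.14) and srz-7 (0.15), and nmr-2 to ceh-36 (0.22), C04E6.8 (0.22) and rig-5 (0.24). No member was among the 3 nearest of another.

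Proteins that work with the receptors were examined from lists. Of 16 auxiliary and trafficking genes, 15 had a probe set, and 5 were called higher in LP (sol-1, sol-2, stg-2, fsn-1 and klc-2), 1 in EP (lin-10) and 1 in LA (sol-1), with none called lower. The list median was 0.60 in LP, 0.05 in EP and 0.13 in LA, against 0.002, 0.04 and -0.01 over all probe sets. sol-1 encodes a transmembrane CUB-domain protein needed for GLR-1 currents. It averaged 7.59 in LP and 5.14 in LR, a change of 2.46 ± 0.13 (adjusted p = 9.65e-06, limma), and 5.74 in LA and 4.95 in LR of the A-class set, a change of 0.79 ± 0.12 (adjusted p = 0.00939). In EP it was 1.12 ± 0.20 and just missed the threshold (adjusted p = 0.0105). sol-2, whose product associates with SOL-1, averaged 6.75 in LP and 5.32 in LR, a change of 1.43 ± 0.17 (adjusted p = 0.000514). stg-2, a stargazin-like auxiliary subunit, averaged 7.15 in LP and 5.78 in LR, a change of 1.37 ± 0.17 (adjusted p = 0.000554). fsn-1, an F-box protein that acts in ubiquitin ligation at synapses, changed by 1.11 ± 0.19 and klc-2, a kinesin light chain, by 0.63 ± 0.08 in LP (adjusted p = 0.00316 and 0.000713). lin-10, a PDZ-domain protein that helps to place GLR-1, averaged 10.33 in EP and 9.29 in ER, a change of 1.05 ± 0.17 (adjusted p = 0.00782). unc-11, a clathrin adaptor, had 1.99 ± 0.43 in LP without a call (adjusted p = 0.0117). The LP enrichment exceeded the LA enrichment by the test for sol-1, sol-2 and fsn-1 (differences LA minus LP of -1.67, -1.24 and -0.92). The EP change was below that of LP for sol-1 and sol-2 (differences of -1.34 and -1.93). For sol-2 the EP change was itself below 0, at -0.50 ± 0.24, and was not called (adjusted p = 0.207, limma).

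Of 3 transcription factors that act on these receptors, unc-42 and fax-1 rose in the larval nervous system. unc-42 encodes a homeodomain protein needed for glr-1 expression in command interneurons. It averaged 8.06 in LP and 6.16 in LR, a change of 1.90 ± 0.17 (adjusted p = 8.87e-05, limma), 8.96 in EP and 7.68 in ER, a change of 1.28 ± 0.17 (adjusted p = 0.00425), and 5.99 in LA and 5.97 in LR of the A-class set, a change of 0.02 (adjusted p = 0.95). Its enrichment in LA was below that in LP by 1.88 ± 0.16 and below that in EP by 1.26 ± 0.19, and both differences were called. fax-1, a nuclear receptor that acts on nmr-1, averaged 6.04 in LP and 5.32 in LR, a change of 0.72 ± 0.15 (adjusted p = 0.00926), and was not called in EP (0.40 ± 0.12) or LA (-0.10 ± 0.08). cfi-1, an ARID-domain factor, was near the floor in all groups with changes of 0.20, 0.20 and 0.19 in EP, LP and LA. The command interneuron markers measured were rig-3, deg-1 and unc-42, the last already given above as a regulator. Of these markers, 1 was called higher in EP (unc-42), 2 in LP (unc-42 among them) and 0 in LA. Their summed intensities were 910 to 1138 in EP against 457.4 to 748.7 in ER, 989.8 to 1252 in LP against 363 to 520.7 in LR, and 440.4 to 547.9 in LA against 331.3 to 483 in LR. The part of these cells in the glr-1 values was not tested.

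**Figure D5:**
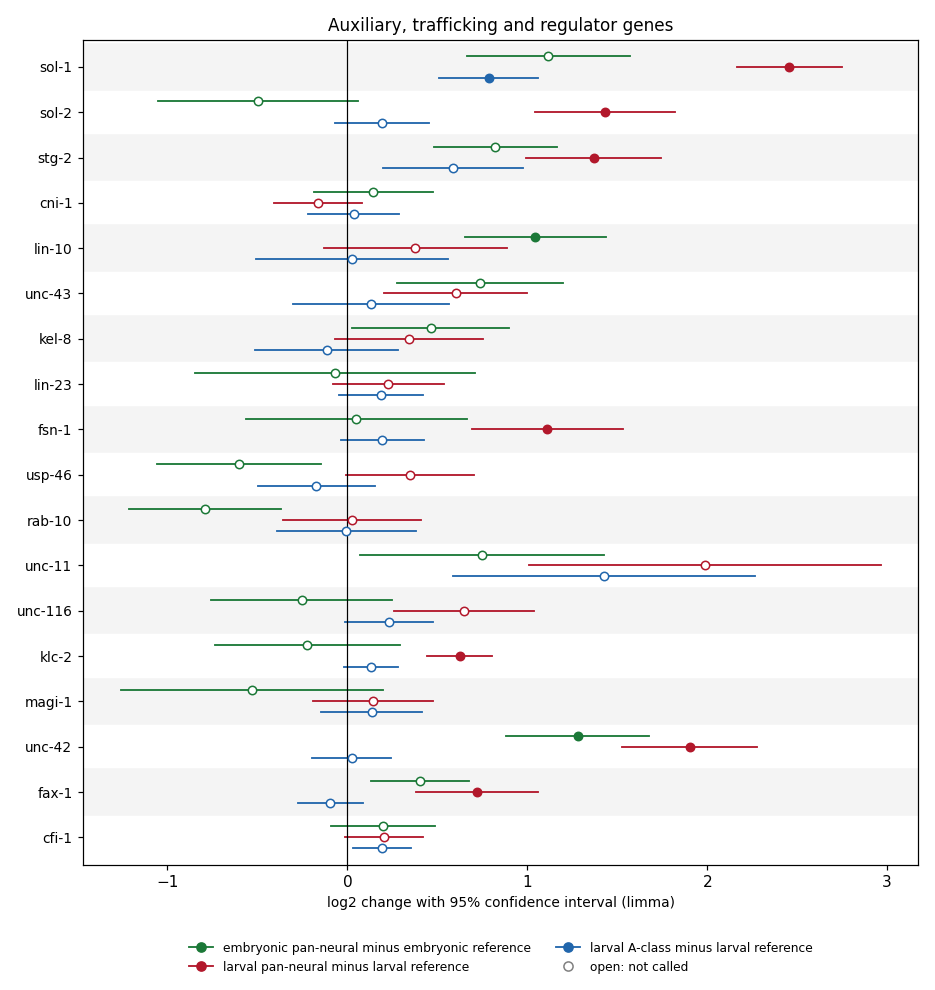
Log2 change of 15 auxiliary and trafficking genes and 3 regulators in the neuronal samples minus their own references, with 95% confidence intervals from limma; filled points were called and open points were not. sol-1 (2.46) and unc-42 (1.90) have the largest called changes in LP, and sol-1 is the only gene with a filled LA point.

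Other parts of glutamate signalling were counted in the same way. Of 7 genes for glutamate release and uptake, only eat-4, the vesicular glutamate transporter, was called higher in LP (2.55 ± 0.15, adjusted p = 1.32e-05, limma), and none was called in EP or LA. Of 5 glutamate-gated chloride channel genes measured, which carry inhibitory current, 2 were called higher in LP (avr-14 and glc-4), 1 in EP (avr-14) and 0 in LA. Of 3 metabotropic receptor genes, 1 (mgl-1) was called higher in LP and 0 in EP and LA. No gene of these lists was called lower than its reference. All 6 cholinergic motor neuron markers and all 4 GABA neuron markers were called higher in LP, and 1 of each list in EP.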

How the data were processed

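RNA of 24 samples, from 19 independent hybridizations, was amplified in 2 rounds, labelled with biotin and hybridized to Affymetrix C. elegans arrays. The deposited values are intensities per probe set that the authors computed by RMA in 3 separate sets and gave on a linear scale; its version was not given in the sources used here. Other deposited files hold scanner and fluidics settings and served to find hybridization days. By title, 3 larval references belong to the embryonic set, but the series design and the distribution of their values (largest gap of percentiles 0.129 log2 to the larval pan-neural arrays, 0.577 to the embryonic ones) put them in the larval set, where they were used.

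Intensities were turned to log2, the 77 control probe sets were left out, and no filter was applied. limma 3.58.1 in R 4.3.3 stood in for SAM, the method of the study, with its samples and thresholds. The calls are not those of the study. By limma 442 probe sets were called higher in EP, 1372 in LP and 175 in LA, each fewer than the enriched genes that the study reported. The study also counted glutamate receptors as enriched in each of these samples, as many in EP as in LP and fewer in LA. The weaker embryonic result and the lack of A-class calls given here are thus those of limma and not of the study. Its class of glutamate receptors may not match the members here. Embryonic enrichments were compared with the larval ones by contrasts within 1 fit. A gene on a list was represented by 1 probe set. The test was checked on simulated data. Members, lists, tests and the rule for named genes (all members, list counts, called auxiliary and trafficking genes, the 3 regulators and the 3 nearest patterns) were chosen with earlier results of these data known. The values of other listed genes were added after they were seen. Alternatives were another normalisation, a variance trend, an intensity filter, array weights, other thresholds, fewer references, blocks and leaving out each array. The labels call the arrays of a group biological replicates, and their small number limits the precision.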

Additional observations from a re-analysis of the deposited data

Results flagged for a closer look

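A single array stood apart from the rest of its group in 4 of the 56 groups of 4 or 5 arrays examined, where the 95% critical value used flags about 1 in 20 by its definition. The larval reference arrays are counted once in each of the larval sets, and the 2 flags of glr-4 below are the same hybridization. glr-2 probe set 189724_at read 5.15 in replicate 1 of the larval reference of the A-class set, where the others were at most 4.85. glr-4 probe set 190059_at read 6.27 in replicate 1 of the larval reference of the pan-neural set and 6.37 in the same hybridization of the A-class set, where the others were at least 6.42 and 6.54. glr-7 read 3.80 in replicate 3 of the embryonic reference, where the other 3 arrays were at 4.04, near the floor.

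The enrichment differed between neuronal samples by limma's test for 7 probe sets. Embryonic minus larval pan-neural enrichment was -1.32 for glr-1 probe set 187868_s_at, -1.77 for glr-5 and -1.42 for nmr-2. A-class minus larval pan-neural enrichment was -2.49 and -2.28 for glr-1 probe sets 172066_x_at and 187868_s_at, -1.43 for glr-2 probe set 190494_s_at, -0.82 for glr-4 probe set 174456_at, -2.81 for glr-5, -0.93 for nmr-1 and -1.63 for nmr-2. A-class minus embryonic pan-neural enrichment was -1.51 and -0.97 for glr-1 probe sets 172066_x_at and 187868_s_at and -1.04 for glr-5.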

How the results depend on the processing

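No called member changed direction under any alternative. The number of members called higher in the embryonic pan-neural sample was 3 with array weights or at an adjusted p under 0.05, 0 with the replicate block or the hybridization day as a random block, and 0 to 1 without any single array. In the larval pan-neural sample it was 2 with only the larval references labelled set 2, 3 with the day as a fixed block and 0 within the shared day, both of these chosen after seeing the data, and 7 without any single array; over all probe sets 351, 376 and 0 were then called higher. In the A-class sample it was 1 with array weights or at an adjusted p under 0.05, and 0 to 1 without any single array. The number lower in the embryonic than in the larval pan-neural enrichment was 7 with array weights, 5 at an adjusted p under 0.05, 1 with only the references labelled set 2, and 1 to 4 without any single array. The number lower in the A-class than in the larval pan-neural enrichment was 4 to 7 without any single array, a larval reference being left out of 1 set at a time, and 5 to 7 under the other alternatives; the call of glr-4 probe set 174456_at was lost under 4 of them, with quantile normalisation once more (adjusted p = 0.0114), an intensity trend (0.0227), only the references labelled set 2 (0.0502) and both larval sets in 1 fit (0.122). The number lower in the A-class than in the embryonic enrichment was 2 to 3 without any single array. The cause was not tested. Replicate numbers gave no clear sign of paired arrays, though so few arrays cannot exclude pairing. Deviations of same-numbered arrays correlated by 0.049 to 0.333 in the embryonic, -0.234 to 0.149 in the larval pan-neural and -0.425 to -0.079 in the A-class comparison. In these, 1 of 3, 2 of 3 and 0 of 4 neuronal arrays correlated best with their own number. With the replicate block 6 members were called in the larval pan-neural and 0 in the A-class sample. Signal over background limits glr-3 and glr-7, which were near the floor in all groups.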
